A study of Mus musculus with 4 samples.

Results

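Genes of matrix breakdown, 7 proteases and 2 of their inhibitors, were followed through the leukocytes of injured mouse muscle. They were taken by name from the gene symbols of the count matrices, as Mmp8, Mmp9, Mmp12, Mmp13, Mmp14, Mmp19, Adam8, Timp1 and Timp2, and all 9 were among the 27998 genes of each of the 4 matrices. Matrix metalloproteinases (MMPs) are zinc-dependent enzymes that are made as inactive proenzymes, are secreted or held at the cell surface, and cleave collagens, elastin, other matrix proteins and many signalling molecules. Tissue inhibitors of metalloproteinases (TIMPs) bind the active enzymes and block them, and some TIMPs also take part in proenzyme activation. In injured muscle, infiltrating leukocytes are a known source of several of these enzymes, which open the basement membrane to migrating cells and clear and rebuild the matrix around regenerating fibres.

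The study asked what loss of Bach1, a haem-regulated transcriptional repressor, does to the cells that enter muscle after cardiotoxin injury of the tibialis anterior. Control mice carried floxed Bach1 alleles (Bach1 fl/fl), and KO mice were Bach1 fl/fl littermates that also carried Lyz2-Cre, so both genotypes held the floxed alleles. All were males of 8 to 12 weeks, and deletion in the KO was limited to cells in which the Lyz2 promoter drives Cre, mainly monocytes, macrophages and neutrophils. CD45+ cells were enriched from muscle at day 2 (dpi2) or day 4 (dpi4) after injury and made into droplet 3′ single-cell RNA libraries, 1 library per genotype and time. With 1 library per group, genotypes and times were not tested against each other. Levels are unique molecular identifiers (UMIs) summed over the cells of a class, per 1000000 UMIs of that class (CPM), and the 95% intervals given with levels, ratios and shares cover counting error only.

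The 4 files held 4177 to 6602 barcodes each, of which 3433 to 5721 were kept, with medians of 10702 to 15157 UMIs per kept cell, and any 2 libraries shared 2 to 14 barcodes. The classes used here were macrophage (1933 cells in control dpi2, 1064 in KO dpi2, 3053 in control dpi4 and 2661 in KO dpi4), monocyte (2552, 981, 42 and 67), neutrophil (631, 822, 128 and 35) and dendritic (295, 221, 283 and 320). They were called from markers, since no cell annotation was used, and all 12 macrophage and all 10 monocyte markers had UMIs in their class in every library. This is a weak check, since all 10 neutrophil markers also had UMIs in control dpi2 macrophages. In control dpi4 neutrophils, Ly6g had 0. The deleted Bach1 exon lies inside the gene, so gene-level Bach1 counts do not check the deletion, and in macrophages the control and KO libraries had 124 and 144 CPM (dpi2), then 215 and 227 CPM (dpi4). Lyz2, the gene that carries the Cre, was at 8076 and 12.9 CPM (dpi2), then 18211 and 24.3 CPM (dpi4), and Hmox1, a known BACH1 target, at 675 and 10276 CPM, then 488 and 7272 CPM. The KO libraries thus differed from control in Lyz2 transcript and in Cre as well as in Bach1. The part of either in the KO over control ratios was not tested. Different clusters filled the macrophage class of the 2 genotypes at dpi2: the cluster led by Hmga2, Pdpn and Htr2b, for example, held 1133 control and 200 KO cells.

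A group of 3, Mmp13, Mmp12 and Mmp8, lie within 296 kb of each other on chromosome 9 of GRCm38, all on the plus strand, at 7272514-7283331, 7344381-7369499 and 7558456-7568485. The others were Mmp9 at 2:164940780-164955850, Mmp14 at 14:54431612-54445364, Mmp19 at 10:128790910-128800824 and Timp1 at X:20870166-20874735 on the plus strand, and Adam8 at 7:139978932-139992562 and Timp2 at 11:118301069-118355740 on the minus strand (GENCODE annotation of GRCm38). On the opposite strand, Mmp19 overlaps Tmem198b for 789 bases and the antisense gene Gm47093, which was not analysed here, for 9915 bases, Timp1 lies inside Syn1 on the opposite strand, and Mmp12 overlaps Mmp1b, which had 0 UMIs. Timp2 overlaps Cep295nl, which was not analysed here, for 10141 bases on the same strand. Adam8 overlaps Mir7062 for 66 bases on the same strand and Gm16201 for 46 bases on the opposite strand, and neither was analysed here. How reads in such overlaps were assigned is not given in the sources used here, so the counts of Mmp19, Timp1, Timp2 and Adam8 are uncertain to that extent.

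The 250 bases before the transcription start are shown for the 3 chromosome 9 neighbours, because Mmp12 and Mmp13 were both lower in KO macrophages at dpi2, where the ratio of Mmp8 had an interval that took in 1. The sequences are from RefSeq on GRCm38.p6, read 5′ to 3′ on the plus strand, at chr9:7272264-7272513 for Mmp13, chr9:7347124-7347373 for the second of the 2 starts listed for Mmp12, and chr9:7558179-7558428 for Mmp8. Capitals mark TGAGTCA or its reverse complement TGACTCA, the binding motif of AP-1 factors.
Mmp13: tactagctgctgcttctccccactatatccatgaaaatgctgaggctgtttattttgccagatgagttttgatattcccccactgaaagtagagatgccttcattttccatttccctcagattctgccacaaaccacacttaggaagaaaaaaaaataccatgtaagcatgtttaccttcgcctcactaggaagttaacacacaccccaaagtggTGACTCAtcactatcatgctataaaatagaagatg
Mmp12: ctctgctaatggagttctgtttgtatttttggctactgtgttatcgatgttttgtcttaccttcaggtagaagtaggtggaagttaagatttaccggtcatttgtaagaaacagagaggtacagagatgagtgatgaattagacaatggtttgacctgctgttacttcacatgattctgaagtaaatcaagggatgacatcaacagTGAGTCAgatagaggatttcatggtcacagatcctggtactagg
Mmp8: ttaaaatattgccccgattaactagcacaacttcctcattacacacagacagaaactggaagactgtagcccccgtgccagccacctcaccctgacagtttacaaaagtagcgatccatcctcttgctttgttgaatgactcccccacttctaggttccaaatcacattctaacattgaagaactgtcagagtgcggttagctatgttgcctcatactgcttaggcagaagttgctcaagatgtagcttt
The motif began 35 bases before the start of Mmp13 and 44 bases before that of Mmp12, and no match lay in the window of Mmp8 or in that of the other Mmp12 start. The Mmp12 window shown lies inside the annotated gene, while that of the other start, chr9:7344147-7344396, takes in the annotated gene start. Promoters of 7 of the 9 genes were listed, 8 in all. Counted over a longer window, 250 bases before and 50 bases after the start, 2 of the 8 held TGAGTCA on either strand. In that window 5.20% of the 32851 promoters of 27025 genes held it. In the same longer window TGAGTCAGC and TGACTCAGC, which contain the same 7 letters, were in 0 of the 8 and in 0.414% and 0.454% of all promoters. A match describes these letters in this window and says nothing about binding in these cells, by AP-1, BACH1 or other factors.

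**Figure D1:**
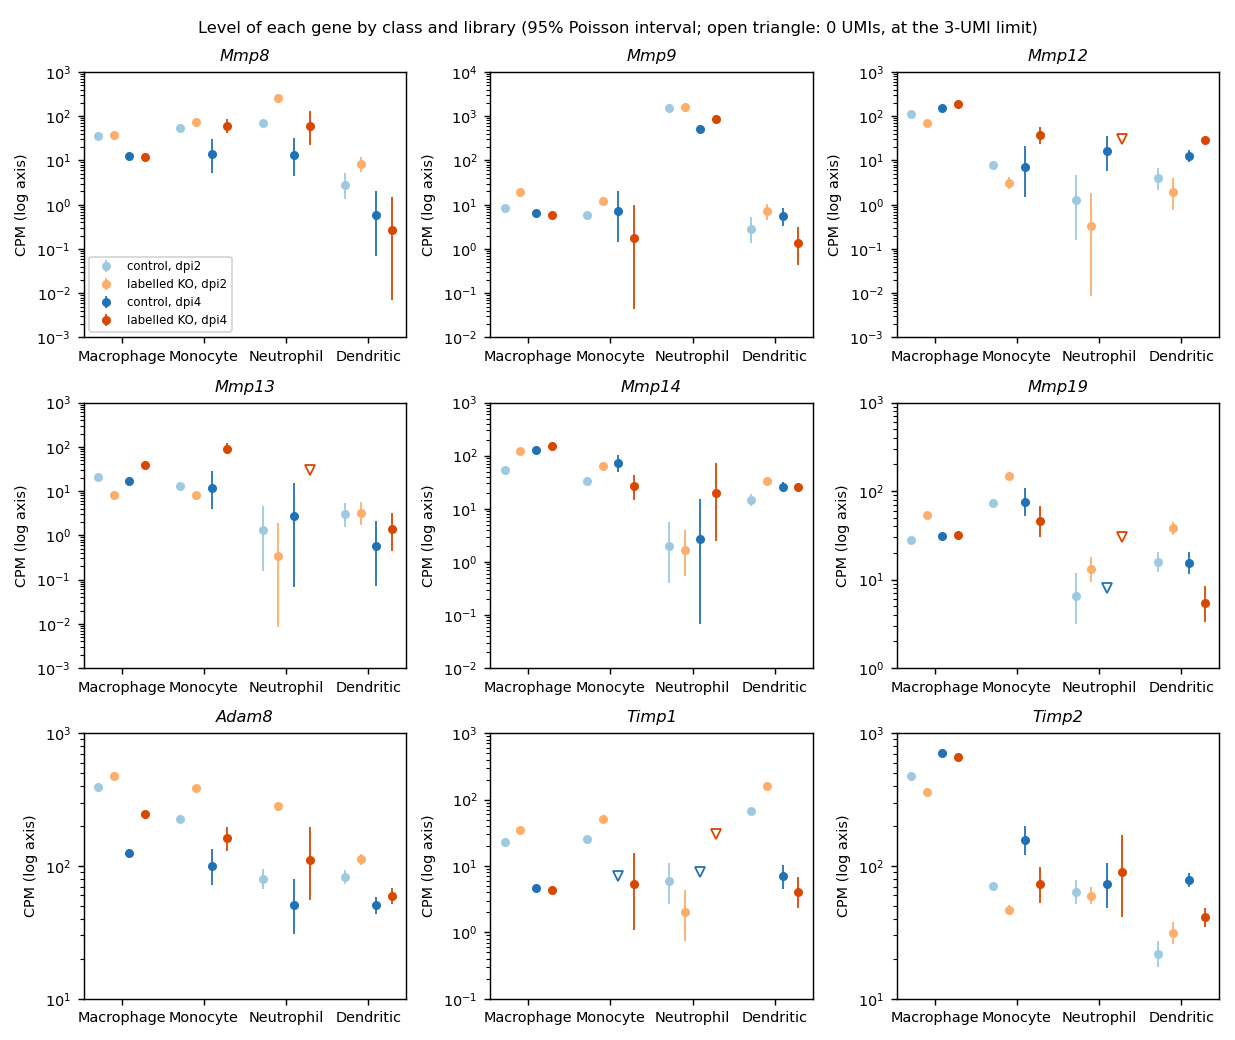
Level of each gene (CPM, log axis) in macrophages, monocytes, neutrophils and dendritic cells of the 4 libraries; points are levels, bars 95% Poisson intervals, and open triangles stand at the 3-UMI limit where no UMI was counted. Mmp9 stood highest in neutrophils, at 525 to 1638 CPM, and Mmp12 and Timp2 in macrophages, at 68.8 to 186 CPM and 363 to 714 CPM.

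The genes divided between leukocyte classes. Of all Mmp9 UMIs in a library, neutrophils held 82.3% in control dpi2, 83.0% in KO dpi2, 31.1% in control dpi4 and 10.8% in KO dpi4. The dpi4 shares rested on single cells of other classes, since 1 control and 3 KO cells with at least 100 Mmp9 UMIs each held 37.9% and 79.3% of the UMIs of their library, and without them neutrophils held 52.2% of the 161 UMIs left in KO and, of the 390 left in control, as many as all other cells together. Mmp9 was among the genes leading the neutrophil cluster, although it was neither in the genes that drove the clustering nor a marker used to name classes. These shares are a description. Macrophages held 94.7%, 97.2%, 95.1% and 97.2% of Mmp12 and 88.2%, 87.4%, 83.6% and 94.2% of Timp2. Mmp19 belonged to monocytes at dpi2, with 63.6% and 53.2% of its UMIs, and to other classes at dpi4, when monocytes were few and held 1.55% and 1.63%. At dpi2 the order of levels in control cells was neutrophil, monocyte, macrophage, dendritic for Mmp8, and macrophage, monocyte, dendritic, neutrophil for Mmp12, Mmp14 and Adam8, with neighbours separated by their intervals except dendritic cells and neutrophils for Mmp12 and Adam8. Timp1 ran from dendritic cells to monocytes, macrophages and neutrophils, with monocytes and macrophages not separated. In KO dpi2 the same 4 classes kept these orders except that neutrophils stood above dendritic cells for Adam8, and for Mmp12 monocytes and dendritic cells were not separated. At dpi4 most intervals of the small monocyte and neutrophil classes overlapped a neighbour's. T and NK cells were taken as the background for shares of positive cells, and whether their UMIs came from free RNA, doublets or the cells themselves was not tested. After thinning each cell to 2000 UMIs, 0 to 2.78% of T and NK cells had a UMI of any single MMP, 2.00% to 8.33% one of Adam8 and 2.78% to 16.2% one of Timp2 (36 to 128 cells a library, median depths of 3951 to 4962 UMIs before thinning).

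Mmp8 encodes the collagenase best known from neutrophil granules. In neutrophils it stood at 71.0 CPM in control dpi2, 263 CPM in KO dpi2, 13.5 CPM in control dpi4 and 60.5 CPM in KO dpi4. The KO library was the higher one at both times, but the dpi4 pair rested on 5 and 6 UMIs. At dpi2 the KO level was 3.71 times the control (95% interval 3.03 to 4.58), and the share of thinned neutrophils with a UMI was 23.6% (20.6 to 26.7) against 7.76% (5.49 to 10.6), or 29.7% against 9.83% without thinning. Macrophages had 35.9, 37.3, 12.6 and 11.8 CPM of Mmp8, and monocytes 53.0, 74.6, 14.3 and 60.4 CPM. In macrophages the genotype ratios of 1.04 (0.959 to 1.13) and 0.939 (0.839 to 1.05) had intervals that took in 1, and both genotypes were lower at dpi4 than at dpi2.

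Mmp13 encodes the collagenase that in rodents does much of the cleavage of fibrillar collagen. Its macrophage level was 20.8 CPM in control dpi2, 8.24 in KO dpi2, 16.8 in control dpi4 and 39.6 in KO dpi4. The KO library was the lowest of the 4 at dpi2 and the highest at dpi4. The KO over control ratio at dpi2 was 0.397 (0.342 to 0.458), that at dpi4 was 2.36 (2.18 to 2.56), and the share of thinned macrophages with a UMI ran the same way, from 2.53% to 0.947% at dpi2 and, at dpi4, from 2.20% to 5.44%, against 0 to 1.35% in T and NK cells. Few cells carried the transcript: the top 10% of macrophages held between 86.1% and all of its UMIs. Without the 10 cells richest in it in each library the ratios were 0.170 and 2.85. At dpi2 those 10 cells held 70.2% of the KO and 30.2% of the control UMIs, so both libraries were trimmed unequally. The summed fibroblast markers in macrophages, 3.61 and 2.63 CPM at dpi2 then 35.1 and 17.2 CPM at dpi4, were lower in the KO library at both times. A monocyte ratio of 7.62 (3.06 to 24.5) at dpi4 rested on 51 UMIs in KO cells, of which 94.1% came from 2 cells.

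Mmp9, gelatinase B, is stored in neutrophil granules and degrades denatured collagen and basement membrane. Its neutrophil level was 1535 CPM in control dpi2, 1638 in KO dpi2, 525 in control dpi4 and 847 in KO dpi4. Both genotypes were higher at dpi2 than at dpi4, and the dpi2 levels of the 2 genotypes lay close, with a ratio of 1.07 (1.02 to 1.12). At dpi4 the ratio was 1.61 (1.24 to 2.10), on 35 KO and 128 control neutrophils, and was 0.805 without the 10 richest cells of each library. Those 10 cells held 75.0% of the KO and 36.4% of the control UMIs, so this unequal trimming cannot decide the direction. A UMI was present in 84.1%, 85.8%, 50.4% and 59.4% of thinned neutrophils, against 0% of T and NK cells.

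In macrophages Mmp9 was 8.32, 19.4, 6.66 and 5.98 CPM, highest in KO dpi2, with a KO over control ratio of 2.34 (2.03 to 2.69) at dpi2 but of 0.898 (0.767 to 1.05) at dpi4. Monocytes followed at dpi2, with 5.82 and 12.0 CPM (ratio 2.06, 1.64 to 2.57, and from 1.20 to 3.26 under other processing, the latter without the sub-cluster led by S100a9, S100a8 and Cxcr2). Neutrophil markers moved the same way: the 10 markers summed to 105 and 253 CPM in control and KO macrophages at dpi2, 92.5 and 69.7 at dpi4, and to 238 and 480.4 in monocytes at dpi2, against 35326 to 74697 in neutrophils themselves. Their part in the Mmp9 difference was not tested. With that sub-cluster left out, the macrophage ratio at dpi2 was 2.43. At dpi4 single cells set the macrophage level, since 1 control cell held 63.5% and 1 KO cell 80.5% of the class's Mmp9 UMIs. Without the 10 richest cells, which held 77.6% of the control and 94.7% of the KO UMIs, the ratio was 0.213.

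Mmp12, macrophage elastase, was 114 CPM in control dpi2 macrophages, 68.8 in KO dpi2, 155 in control dpi4 and 186 in KO dpi4. The KO library was the lowest of the 4 at dpi2 and the highest at dpi4, as for Mmp13. The ratios were 0.606 (0.575 to 0.639) and 1.20 (1.17 to 1.24), neither reaching 2-fold. Cells were very uneven for this gene. The top 10% of macrophages held between 96.5% and all of its UMIs, and 1 cell held 1329 of the 4312 UMIs of control dpi2 (30.8%). Without the 10 richest cells the dpi2 ratio was 0.307, while the dpi4 ratio was 1.16. At dpi2 those cells held 79.2% of the KO and 58.7% of the control UMIs, in a KO class of fewer cells. The direction at dpi4 depended on the cell calls, since the ratio was 0.892 with each library clustered alone. Thinned shares of positive macrophages in control and KO were 5.89% and 2.46% at dpi2, 7.01% and 6.71% at dpi4, so at dpi4 the higher KO level did not come with a higher share of positive cells.

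Mmp14 encodes a membrane-anchored MMP that cleaves collagen at the cell surface and activates proMMP2. Macrophages had 54.6 CPM in control dpi2, 123 in KO dpi2, 129 in control dpi4 and 155 in KO dpi4. Control dpi2 was the low library and the other 3 were alike to within a factor of 1.26. The dpi2 ratio was 2.26 (2.14 to 2.39), the dpi4 ratio 1.20 (1.16 to 1.24), and thinned shares were 10.1%, 22.0%, 19.0% and 22.7%, against at most 2.78% in T and NK cells. The same direction held at dpi2 in monocytes, 33.0 and 63.3 CPM (ratio 1.92, 1.75 to 2.11), and in dendritic cells, 14.9 and 33.2 CPM (ratio 2.24, 1.61 to 3.15), where thinned shares of 1.72% and 5.09% stood near the 2.78% of T and NK cells. Neutrophils had 1 to 5 UMIs of Mmp14 in a library, as they had 0 to 6 of Mmp12, 0 to 2 of Mmp13 and 0 to 9 of Timp1. Outside the leukocytes, the few fibroblasts of dpi4 carried 588 and 655 CPM in 39 control and 15 KO cells.

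Mmp19, a secreted MMP that cleaves basement membrane components, was a monocyte gene at dpi2, with 73.9 CPM in control and 149 in KO, and 76.1 and 46.2 CPM at dpi4. KO dpi2 was the high library, although different clusters filled the monocyte class of the genotypes (the one led by Vcan, Il6 and Dmkn held 470 control and 658 KO cells, the one led by Cxcl10 and Ifit1bl1 791 and 79). The dpi4 pair rested on 32 and 26 UMIs, with a ratio of 0.607 (0.347 to 1.05). The dpi2 ratio was 2.02 (1.90 to 2.15) in monocytes, 1.90 (1.75 to 2.05) in macrophages (28.0 and 53.1 CPM) and 2.37 (1.73 to 3.28) in dendritic cells (16.0 and 37.9 CPM). Thinned monocytes with a UMI were 12.8% in control and 20.5% in KO at dpi2, with 0% of T and NK cells. Macrophages at dpi4 differed little, 30.9 and 31.8 CPM (ratio 1.03, 0.961 to 1.10).

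Adam8, a membrane protease of the ADAM family that sheds cell-surface proteins of leukocytes, had a higher level in KO than in control, with an interval above 1, in 6 of the 7 pairs of class and time with enough UMIs. The other was dendritic cells at dpi4 (ratio 1.18, 0.961 to 1.45), and the dendritic ratios turned under other processing, to as low as 0.852 at dpi2 (1.37 as counted here) and 0.583 at dpi4. Macrophages had 395, 477, 126 and 245 CPM, in the order control dpi2, KO dpi2, control dpi4, KO dpi4. Levels were higher at dpi2 than at dpi4 in both genotypes, and the KO library was the higher one at each time, with ratios of 1.21 (1.18 to 1.23) and 1.95 (1.89 to 2.00). Monocytes had 224 and 389 CPM at dpi2 (ratio 1.74, 1.68 to 1.80) and 99.9 and 162 CPM at dpi4 (ratio 1.62, 1.11 to 2.39). Neutrophils had 80.1 and 283 CPM at dpi2, a ratio of 3.54 (2.92 to 4.31). UMIs were found in 13.6% and 39.3% of thinned dpi2 neutrophils, 17.0% and 54.1% before thinning, against 2.00% and 8.33% of T and NK cells. At dpi4 the 6.72% of control neutrophils with a UMI was no higher than the 6.76% of T and NK cells of that library, so the dpi4 neutrophil pair is not read.

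Timp1, an inhibitor of most secreted MMPs that is induced in inflamed tissue, was highest among leukocytes in dendritic cells at dpi2, with 67.0 CPM in control and 160.4 in KO, and 6.95 and 4.10 CPM at dpi4. Both genotypes were far lower at dpi4. At dpi2 the KO over control ratio was 2.39 (2.06 to 2.79) in dendritic cells, 2.02 (1.82 to 2.25) in monocytes (25.3 and 51.2 CPM) while in macrophages (23.0 and 34.6 CPM) the interval ran from 1.37 to 1.64. Macrophages fell to 4.58 and 4.37 CPM at dpi4, with a ratio of 0.954 (0.790 to 1.15). Cells other than leukocytes had most of it at dpi4: 256 and 792 CPM in fibroblasts and 166 and 238 CPM in muscle cells of the control and KO libraries.

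Timp2 encodes an inhibitor that also links proMMP2 to MMP14 at the cell surface. Macrophages had 473 CPM in control dpi2, 363 in KO dpi2, 714 in control dpi4 and 658 in KO dpi4. The KO library was the lower one at both times and dpi4 the higher time in both genotypes, with KO over control ratios of 0.767 (0.749 to 0.785) and 0.921 (0.908 to 0.935). Monocytes had 71.1 and 46.8 CPM at dpi2 (ratio 0.658, 0.602 to 0.719) and 157 and 72.8 at dpi4 (ratio 0.464, 0.306 to 0.695, but 0.753 without the 10 richest cells of each library). It was the most evenly spread of the 9 at dpi4, the top 10% of macrophages holding 34.9% and 35.5% of its UMIs. In neutrophils 9.90% to 14.3% of thinned cells had a UMI, a range that overlaps that of T and NK cells.

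**Figure D2:**
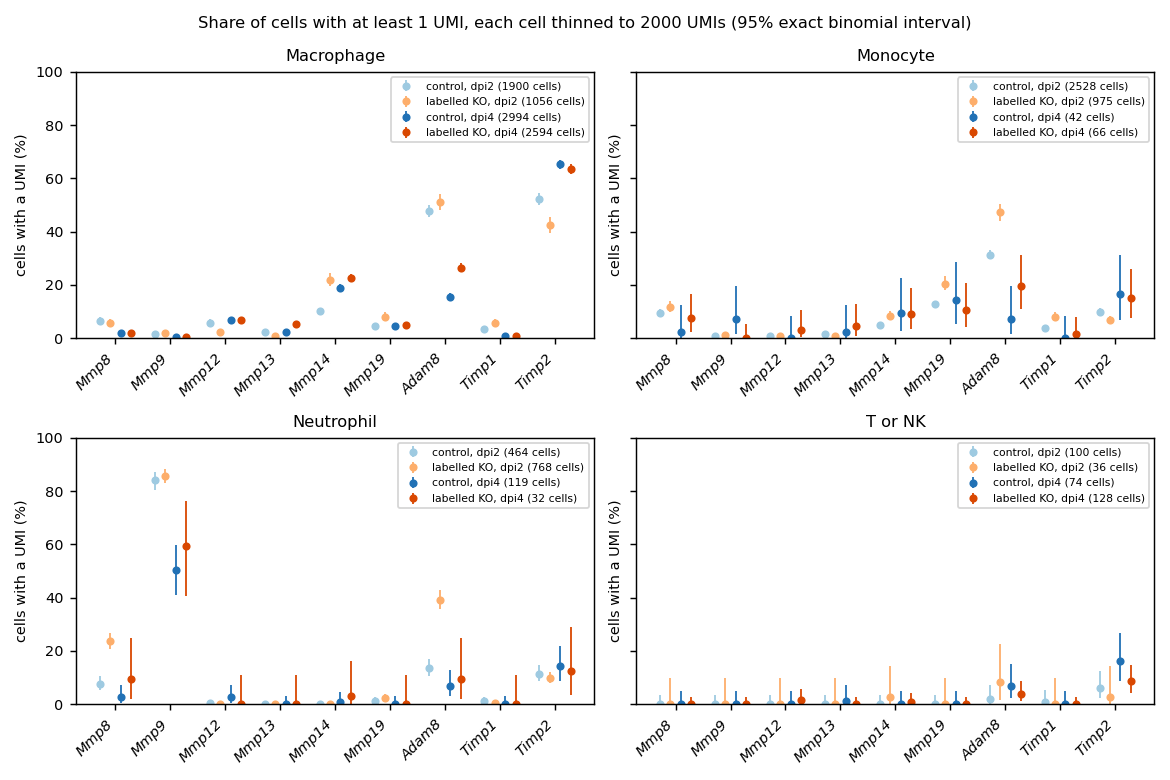
Percent of cells with at least 1 UMI of each gene, every cell thinned to 2000 UMIs, in macrophages, monocytes, neutrophils and T or NK cells; points are the 4 libraries and bars exact 95% binomial intervals. Mmp9 reached 84.1% and 85.8% of dpi2 neutrophils, Timp2 42.4% to 65.4% of macrophages, and no MMP passed 2.78% of T or NK cells.

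KO was set against control in each class by 1 rule of size, a ratio of at least 2-fold either way, an interval that leaves out 1 and at least 50 UMIs in the pair of libraries. In macrophages at dpi2, 3 of the 9 genes passed it, Mmp9 and Mmp14 higher and Mmp13 lower, where 4.37% of the 11123 genes with enough UMIs passed. The median log2 ratio was 0.27 over the 9 and -0.02 over all genes. At dpi4, 1 of 9 passed, Mmp13 higher, against 2.31% of genes. In monocytes at dpi2, 4 of 9 passed, Mmp9, Mmp19 and Timp1 higher and Mmp12 lower (8.03 and 3.13 CPM, ratio 0.390), against 4.55% of genes. Each of these 4 calls was lost under at least 3 alternatives with its direction kept, the ratio coming as near to 1 as 1.20 for Mmp9, 1.77 for Mmp19, 1.66 for Timp1 and 0.864 for Mmp12. The median log2 ratio there was 0.80 over the 9 and -0.01 over all genes. At dpi4, with 42 and 67 monocytes, 4 of the 9 had enough UMIs and 2 passed, Mmp13 higher and Timp2 lower, against 3.20%.

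Of the 9 genes 4 had enough UMIs in neutrophils at dpi2, and 2 of them passed the rule, Mmp8 and Adam8, both higher in KO, while Mmp9 and Timp2 (63.8 and 59.8 CPM) did not. The background was 9.43% of genes, and the median log2 ratio of all genes was -0.30, so that relative to it these ratios were 4.57 for Mmp8 and 4.35 for Adam8. An unnamed cluster led by Pdcd1lg2, Il1f9 and Rab15 held 89 control and 482 KO cells at dpi2, and with it added to the neutrophils the ratios were 2.80 and 2.99. The 10 neutrophil markers summed to 52909 CPM in control and 74697 CPM in KO neutrophils at dpi2. Median depths there were 2308 and 3425 UMIs per cell. The part of these differences in the ratios was not tested. At dpi4 Mmp9 was the 1 gene with enough UMIs and did not pass (background 6.48%). In dendritic cells 3 of 5 passed at dpi2, Mmp14, Mmp19 and Timp1, all higher in KO, against 2.86% of genes. None of the 3 passed with no doublet removal, and Mmp14 and Mmp19 did not pass with thinned cells or with at least 200 UMIs. At dpi4, 2 of 5 passed, Mmp12 higher (12.7 and 29.3 CPM, ratio 2.30) and Mmp19 lower (15.6 and 5.47 CPM, ratio 0.350), against 1.44%, and the direction of both depended on the cell calls or on 10 cells.

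**Figure D3:**
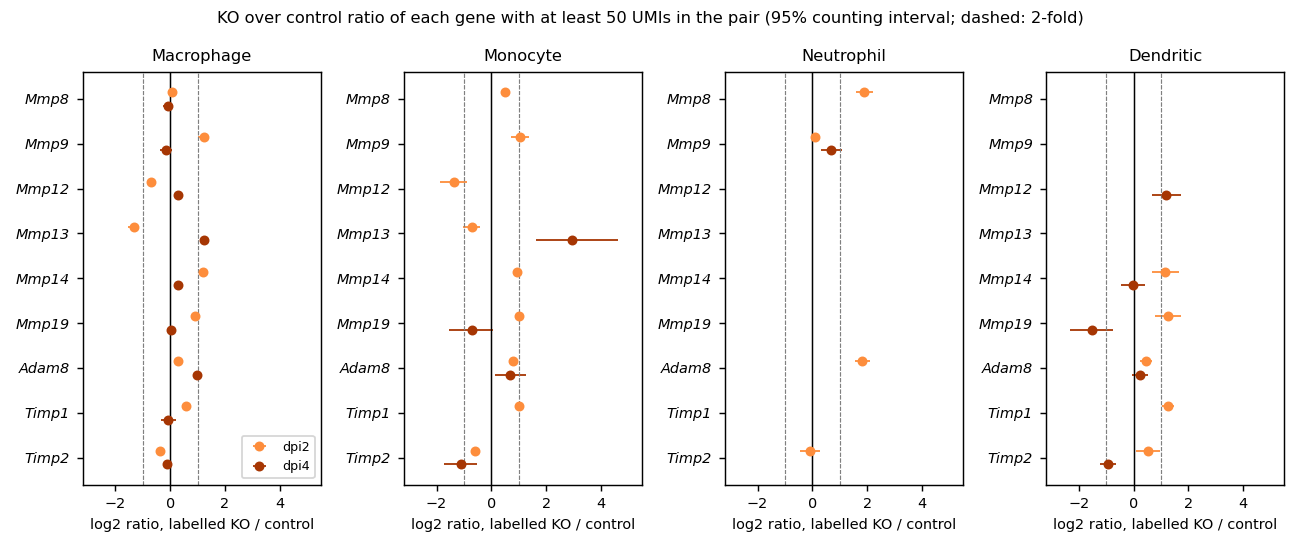
KO over control log2 ratio of each gene with at least 50 UMIs in the pair, in 4 classes at dpi2 and dpi4; points are ratios, bars 95% counting intervals, the solid line no difference and the dashed lines 2-fold. Mmp13 in macrophages lies on opposite sides of the line at the 2 times, at ratios of 0.397 and 2.36, and Mmp8 and Adam8 lie to the right in dpi2 neutrophils, at 3.71 and 3.54.

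The 2 time points were set side by side within each genotype. These comparisons share their libraries with those of KO and control and are not independent of them. In control macrophages 4 of 9 passed the rule from dpi2 to dpi4, Mmp14 higher (ratio 2.36, 2.25 to 2.48) and Mmp8 (0.349), Adam8 (0.319) and Timp1 (0.199) lower, where 15.6% of genes passed. In KO macrophages 5 of 9 passed, Mmp12 (2.70) and Mmp13 (4.80) higher and Mmp8 (0.316), Mmp9 (0.308) and Timp1 (0.126) lower, against 13.6% of genes. Mmp12 and Mmp13 had ratios of 1.36 and 0.807 in control cells, Mmp14 one of 1.26 in KO cells, and Timp2 ratios of 1.51 in control and 1.81 in KO cells. Mmp19 stood at 1.10 in control and 0.599 in KO. Medians of the log2 ratio were -0.31 in control and -0.74 in KO over the 9, beside -0.07 and -0.05 over all genes.

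**Figure D4:**
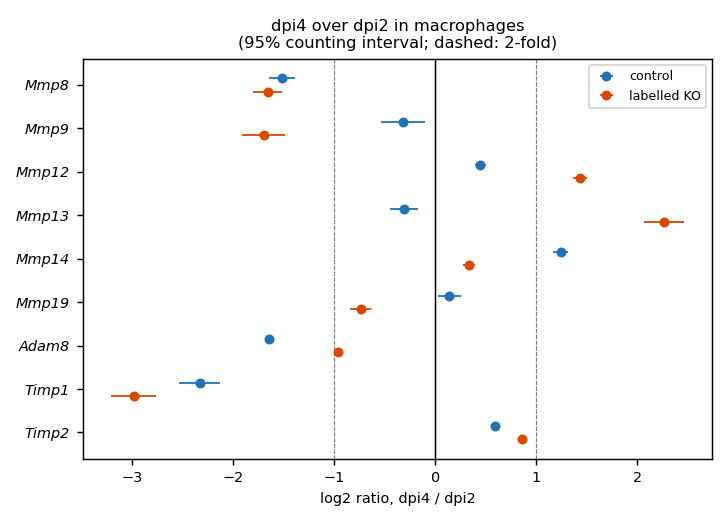
The dpi4 over dpi2 log2 ratio of the 9 genes in macrophages of the control and KO mice; points are ratios, bars 95% counting intervals, the solid line no difference and the dashed lines 2-fold. Timp1 and Mmp8 lie left of the 2-fold line in both genotypes, and Mmp13 lies right of it at 4.80 in KO cells and left of the solid line at 0.807 in control cells.

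In the clustering of all cells, the 9 genes and the gene lists below were kept out of the genes that drive it. Vcan, Col1a1 and Col3a1 of those lists, which are also cell type markers, were not kept out. Monocytes and macrophages were also clustered on their own in the same way, which gave 17 sub-clusters. Libraries filled them unequally: the one led by Hmga2, Htr2b and Pde4d held 1207 control and 156 KO cells at dpi2, and the one led by Slc40a1, Vcam1 and Spic held 46 and 999 at dpi4. Within sub-clusters at dpi2, Mmp14 was higher in KO in 7 of 7 with enough UMIs (ratios 1.67 to 2.84), Timp1 in 7 of 7 (1.20 to 2.83) and Adam8 in 8 of 8 (1.28 to 1.98), all with intervals above 1. These were 3 of the 6 members with enough UMIs in at least 7 sub-clusters, beside 4.07% of genes that were higher in KO in all of theirs, and 0 members were lower in all of theirs, beside 4.97% of genes. Mmp19 was higher in 7 of 8 and lower in 1, with ratios from 0.712 to 2.68, among them 1.23 in the F10-led, 1.35 in the Cxcl3-led, 1.75 in the Hp-led and 1.99 in the Cxcl10-led sub-cluster.

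At dpi4, Adam8 was higher in KO in 10 of 10 sub-clusters (1.09 to 3.06, 9 intervals above 1) and was the 1 of the 6 members with enough UMIs in at least 7 sub-clusters that was higher in all of them, beside 2.46% of genes. Timp2 was lower in 10 of 10 (0.595 to 0.972, 8 intervals below 1), the 1 member lower in all among the 6 with enough UMIs in at least 7 sub-clusters, beside 2.13% of genes. At dpi2 it was higher in 4 and lower in 4 of 8 sub-clusters (0.549 to 1.53). At dpi4 Mmp13 was higher in KO in 7 of 8, from 1.08 in the sub-cluster led by Gm26917 to 3.63 in the Hmga2-led one. It was lower in the one led by Mmp12, Mamdc2 and Rhoc (44.4 and 30.8 CPM). In the sub-cluster led by Iigp1, Serpina3g and Ifit2 it was 42.6 CPM in control and 124 in KO. At dpi2, by contrast, Mmp13 was higher in KO in 2 and lower in 3 of 5 sub-clusters (0.424 to 2.26). Of these intervals 1 lay above 1 and 2 below. The lower dpi2 level of the class was thus not shared by all sub-clusters. Mmp8 at dpi4 was lower in 6 of 6, with 4 intervals below 1, although the macrophage class as a whole had a ratio of 0.939. For genes with enough UMIs in fewer than 7 sub-clusters, as here, no share of all genes was computed.

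Mmp12 did not keep 1 direction across sub-clusters. At dpi2 it was higher in 1 and lower in 3 of the 4 with enough UMIs, the higher one being the cycling sub-cluster led by Top2a, at 35.8 and 192 CPM in control and KO. At dpi4 it was higher in KO in 7 of 9, as in the Iigp1-led sub-cluster at 12.5 and 58.7 CPM, and lower in the Mfge8-led (184 and 133 CPM) and Hmga2-led (503 and 399 CPM) ones. The sub-cluster led by Mmp12 itself had 1069.8 CPM in 159 control cells and 1626 CPM in 69 KO cells at dpi4. At dpi2 the Hp-led sub-cluster had 127 CPM of Mmp8 in control and 194 in KO.

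**Figure D5:**
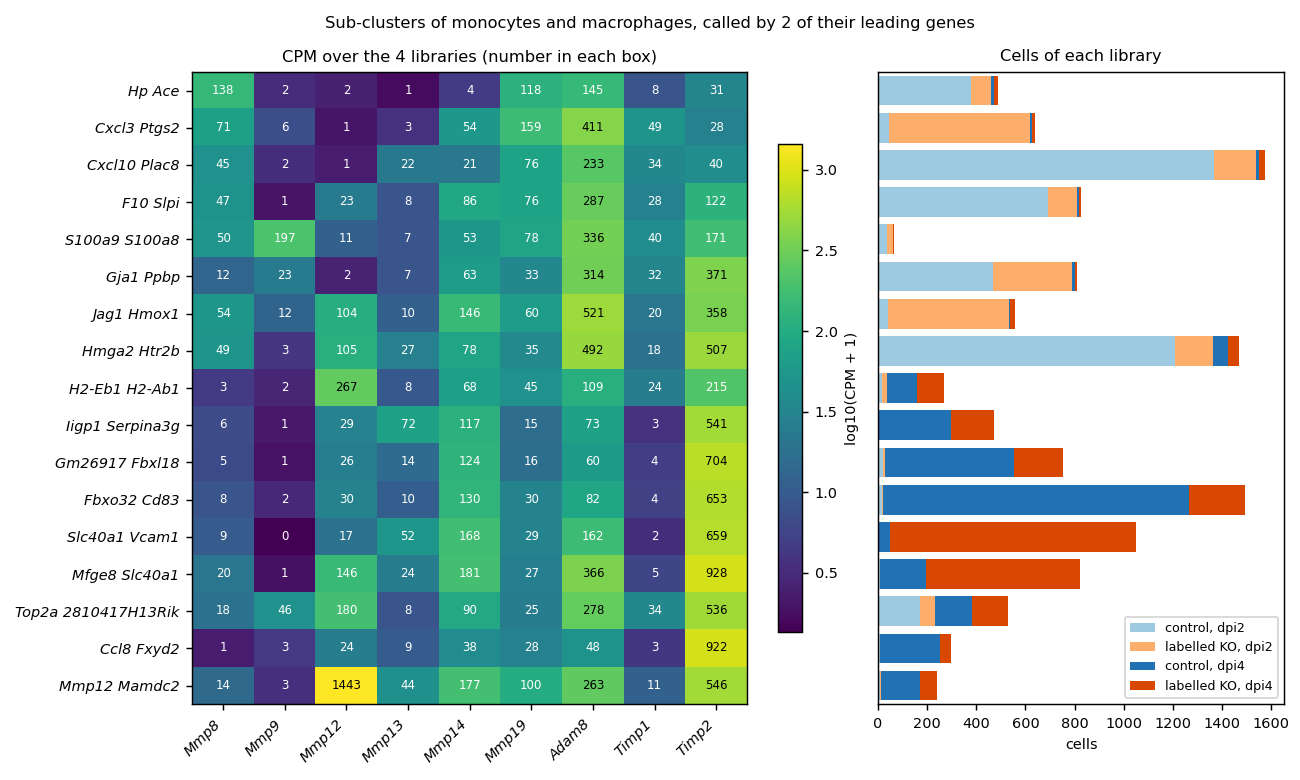
Level of the 9 genes in the 17 sub-clusters of monocytes and macrophages, summed over the 4 libraries (left, colour is log10(CPM + 1) and the number in each box is CPM), with the cells of each library in each sub-cluster (right). Mmp12 stands at 1443 CPM in the sub-cluster it leads, Mmp8 at 138 CPM in the Hp-led one and Mmp19 at 159 CPM in the Cxcl3-led one, which held 46 control and 574 KO cells at dpi2, so levels summed over libraries give no order of sub-clusters within a library.

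Over 60 points, each the cells of 1 cluster in 1 library, the genes whose log2(CPM + 1) was most like that of a member were ranked among 11969 genes. The points share libraries and cell types, so these correlations are descriptions. Mmp9 was closest to the neutrophil genes Cxcr2, Wfdc21 and Stfa2l1 (r of 0.87 for Cxcr2), and Mmp8 to Clec4d (0.87), C5ar1 (0.87) and Tpd52 (0.85). Timp2 was closest to Syngr1 (0.91), the lysosomal peptidase gene Tpp1 (0.91) and Trem2 (0.89), a receptor of lipid-handling macrophages. Mmp14 was nearest to 2510009E07Rik (0.90), Myof and Mertk, Mmp12 to Dnmt3aos (0.83), Cxcl14 and Gpnmb, and Mmp13 to Itgav (0.73), Adam33 and Pld3. Mmp19 was nearest to Msr1 (0.84), Zeb2os and Adap2os, Adam8 to Edem1 (0.85), Ywhag and Plin2, and Timp1 to Morf4l2 (0.77), Oaf and Fn1.

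The rest of the pathway was taken as 5 lists, 54 genes in all. Of 17 other MMPs, 2 (Mmp1a and Mmp1b) had 0 UMIs in kept cells, which leaves room for up to 3 UMIs, and 8 had fewer than 50. In macrophages 0 of 1 with enough UMIs passed the rule at dpi2 and 0 of 3 at dpi4, against 4.37% and 2.31% of genes. Between times, Mmp2, the gelatinase that MMP14 activates, was higher at dpi4 in control (0.395 and 4.72 CPM, ratio 12.0) and KO macrophages (0.399 and 5.20 CPM, ratio 13.0), beside fibroblast markers that went from 3.61 to 35.1 CPM and from 2.63 to 17.2 CPM, whose part was not tested. Mmp27 was higher at dpi4 in KO macrophages (8.24 and 16.9 CPM, ratio 2.05). These were 1 of 2 other MMPs with enough UMIs in control and 2 of 2 in KO, against 15.6% and 13.6% of genes. Of 14 other ADAM and ADAMTS genes, 0 of 5 and 0 of 6 passed in macrophages at dpi2 and dpi4, against the same 4.37% and 2.31%. In neutrophils at dpi2, 2 of 5 passed, Adam9 (2.01) and Adam19 (2.51), both higher in KO, against 9.43% of genes. None of the other inhibitors Timp3, Timp4 and Reck had enough UMIs in macrophages, monocytes or neutrophils for a KO over control ratio.

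Among 12 genes of MMP activation, docking and clearance, Lcn2, whose product binds MMP9, was higher in KO at dpi2 in macrophages (ratio 3.66) and neutrophils (2.83). Neutrophil markers were also higher in those KO macrophages, at 253 against 105 CPM, and their part in the Lcn2 ratio was not tested. Plau, the urokinase that starts the plasmin cascade upstream of several proMMPs, was lower in KO macrophages at dpi2 (0.499). At dpi2, 2 of 10 genes of this list with enough UMIs passed the rule in macrophages, against 4.37% of genes. In neutrophils 2 of 9 did, against 9.43%. Of 8 matrix substrates, Vcan, which was also 1 of the 10 monocyte markers used to name the classes, was higher (2.34) and Col1a1 lower (0.485) in KO macrophages at dpi2, and Fn1 (0.464), Col1a1 (0.473) and Col3a1 (0.384) were lower in KO macrophages at dpi4. These were 2 of 5 substrates with enough UMIs at dpi2 and 3 of 6 at dpi4, against 4.37% and 2.31% of genes. In the few dpi4 monocytes Vcan was higher (3.76) and Fn1 (0.373) and Spp1 (0.265) lower in KO, 3 of 3 against 3.20% of genes. The collagen genes are also fibroblast markers, which were lower in the KO library at dpi4.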

How the data were processed

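Per the labels, the authors made 4 droplet 3′ libraries and counted UMIs with Cell Ranger 6.1.2. They deposited matrices of raw UMI counts per gene and barcode, aligned to the mm10 build, and nothing in them was normalized. Barcodes with at least 500 detected genes and under 10% mitochondrial UMIs were kept. The highest Scrublet scores, 0.8% per 1000 cells of a library (100 to 289 cells), were removed as doublets. The 4 libraries were clustered together with scanpy 1.11.5 and leidenalg 0.10.2 (2000 variable genes, 30 principal components, 15 neighbours, resolution 1) into 26 clusters, with no batch correction, and clusters were named from marker lists. The members and lists were chosen with earlier results of these data known. UMIs were summed per class and library, and were given as CPM with exact Poisson intervals. Ratios have exact conditional binomial intervals and shares exact binomial (Clopper-Pearson) ones. PCR duplicates are collapsed by the UMIs, but cells of 1 library are not replicates, so no p-value was computed. Precision follows depth, with 57010520 to 80228489 UMIs a library. Thinning to 2000 UMIs left out 33, 8, 59 and 67 macrophages and 167, 54, 9 and 3 neutrophils (control dpi2, KO dpi2, control dpi4, KO dpi4). Named were the 9 members, list genes past the rule of size in macrophages, monocytes or neutrophils (at most 4 a list and comparison), list genes not detected, the 3 genes most like each member and the genes leading clusters. The counting was checked on simulated counts. Sequences came from RefSeq and positions from GENCODE, and 9 of 9 gene IDs matched. A few genes of the lists and cluster labels are not reported here.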

Additional observations from a re-analysis of the deposited data

Results flagged for a closer look

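In 5 of 18 pairs of gene and class with enough UMIs at both times, the KO over control ratio lay on opposite sides of 1 at dpi2 and dpi4, with both intervals leaving out 1. By the same rule 7.51% of all pairs of gene and class compared did so, 9.51% in macrophages, 8.84% in monocytes, 3.80% in neutrophils and 4.83% in dendritic cells. Mmp13 in macrophages had ratios of 0.397 (95% counting interval 0.342 to 0.458) at dpi2 and 2.36 (2.18 to 2.56) at dpi4. Within sub-clusters of monocytes and macrophages at dpi2, Mmp13 was higher in KO in 2 and lower in 3 of 5 (0.424 to 2.26). Mmp12 in macrophages had 0.606 (0.575 to 0.639) and 1.20 (1.17 to 1.24), the second 0.892 with each library clustered alone. Mmp13 in monocytes had 0.612 (0.492 to 0.758) and 7.62 (3.06 to 24.5), the second from 51 KO UMIs of which 94.1% lay in 2 cells. Mmp19 in dendritic cells had 2.37 (1.73 to 3.28) and 0.350 (0.198 to 0.594), the second on the other side of 1 with no doublet removal or with each library clustered alone. Timp2 in dendritic cells had 1.43 (1.07 to 1.93) and 0.523 (0.425 to 0.641), the first 0.923 without the 10 richest cells of each library, 1 KO cell holding 35 of its 115 UMIs. With 1 library per group none of these differences between times was tested.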

How the results depend on the processing

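Every alternative changed 1 choice, and 2 were added after the data were seen (leaving out the sub-cluster led by S100a9, S100a8 and Cxcr2, and adding the cluster led by Pdcd1lg2, Il1f9 and Rab15 to the neutrophils). No paired analysis was possible because each group had 1 library. Leaving out 10 cells took a larger part of a smaller class, as in dpi4 neutrophils (35 KO and 128 control cells). Ratios without those cells therefore also depend on class size. The macrophage ratios of Mmp14 at dpi2 (2.19 to 2.40 over the alternatives), Mmp9 at dpi2 (2.17 to 2.81), Mmp13 at dpi2 (0.170 to 0.465) and dpi4 (2.23 to 3.09) and Adam8 at dpi4 (1.77 to 2.02), and the neutrophil ratios of Mmp8 (2.80 to 4.80) and Adam8 (2.99 to 4.35) at dpi2, kept their direction throughout. In dendritic cells at dpi4 the direction of Mmp19 reversed with no doublet removal (log2 ratio 0.74) and with each library clustered alone (0.82), and that of Mmp12 without the 10 richest cells (-0.18). Among KO over control ratios short of 2-fold whose interval left out 1, these fell below 1 under at least 1 alternative: Mmp12 in macrophages at dpi4 (lowest 0.892), Mmp9 in neutrophils at dpi2 (0.802) and dpi4 (0.805), and Adam8 (0.852) and Timp2 (0.923) in dendritic cells at dpi2. The cause was not tested in any of these.

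Counts of members past the rule of size that moved by over 1.5 times are given here, and a count that moved less need not hold the same genes. Of the 4 genes of dpi2 monocytes, for example, pooling with macrophages lost Mmp12, Mmp19 and Timp1 and added Mmp13 and Mmp14. In macrophages at dpi2 (3), 5 passed with thinned cells and 5 at 1.5-fold. In macrophages at dpi4 (1), 2 passed at a mitochondrial limit of 20%, 2 with libraries clustered alone, 2 with cells weighted equally, 2 at 1.5-fold and 3 without the 10 richest cells. In KO macrophages between times (5), 8 passed at 1.5-fold. In monocytes at dpi2 (4), 1 passed with libraries clustered alone, 1 with thinned cells, 2 without the 10 richest cells and 8 at 1.5-fold. In monocytes at dpi4 (2), 4 passed with a minimum of 200 detected genes, 4 with no doublet removal, 4 at resolution 2, 1 when pooled with macrophages, and 0 with thinned cells, without the 10 richest cells or with at least 200 UMIs. In neutrophils at dpi4 (0), 1 passed with libraries clustered alone, 1 with the Pdcd1lg2-led cluster added and 1 at 1.5-fold. In dendritic cells at dpi2 (3), 8 passed with libraries clustered alone, 1 with thinned cells, 1 with at least 200 UMIs and 0 with no doublet removal. In dendritic cells at dpi4 (2), 1 passed at the 20% mitochondrial limit, with no doublet removal, with libraries clustered alone, at resolution 2 or with cells weighted equally, and 0 with at least 200 detected genes, thinned cells, at least 200 UMIs or without the 10 richest cells. Clustered alone, control dpi4 gave no monocyte class. Depth limits the neutrophils most, at medians of 2308 to 3425 UMIs per cell, and the dpi4 monocytes and neutrophils by their 35 to 128 cells.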

Other observations

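A handful of cells outside the neutrophils held very high Mmp9. Of all kept cells, 4 had at least 100 Mmp9 UMIs, all at dpi4 and none called a neutrophil: 1 control and 1 KO cell of the macrophage class, with 238 and 227 UMIs, and 2 KO cells of the fibroblast class, with 204 and 184. All 4 also had 261 to 624 UMIs of Ctsk, the collagen-degrading cathepsin K, 208 to 463 UMIs of Acp5, the tartrate-resistant acid phosphatase, and 5 to 33 UMIs of Ocstamp, genes that are best known together from osteoclasts. S100a8, the neutrophil marker with the highest level in neutrophils, was at 0 UMIs in each of the 4, and Cxcr2 at 0 in 3 of them and 3 UMIs in the other. The 2 cells of the fibroblast class also had 417 and 768 Col1a1 UMIs, against 1 in each of the others. The 4 cells were chosen for their Mmp9 counts after these were seen, and whether any is a doublet beyond those removed was not tested.

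Mmp13 was concentrated in the same way in the fibroblast class, where control dpi4 had 316 CPM against 8.98 CPM in KO dpi4, and 371 of the 461 control UMIs lay in 1 cell. Endothelial cells, few in each library (15 to 40 cells), had 80.8, 184, 133 and 204 CPM of Mmp14 in control dpi2, KO dpi2, control dpi4 and KO dpi4, with 1 cell holding 34 of the 71 UMIs of KO dpi2 and 1 cell 53 of the 169 of KO dpi4.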
